A study of Drosophila melanogaster with 2 samples.

Results

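The genes elav, sls, tin and fkh were each taken from a list of neural, muscle, heart or gut genes of the fruit fly. Each carried a peak of GFP-tagged TFAM just upstream of a start site that passed the authors' filter for reproducibility. Among nuclear regions, this filter coincided with a limit on the peak value from both replicates together. Passing it therefore does not by itself show that the replicates agree on a given peak. In 1 of the 2 replicates, taken alone, the tin peak did not reach a q-value of 0.05. The 4 genes were chosen by the peak itself: on the dm6 build, the list that the authors filtered for reproducibility between replicates (the thresholded list) holds a summit within 500 bp of one of their annotated start sites. They are 4 of 13945 protein-coding genes on chromosomes 2L, 2R, 3L, 3R, 4 and X, of which 746 (5.35%, 95% Wilson interval 4.99 to 5.74, counting error only) met the same condition. Because the peak itself chose the genes, its presence and height are given as a description, with no test.

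The peaks come from chromatin immunoprecipitation and sequencing of whole Drosophila melanogaster embryos, 0 to 16 h old and of both sexes, from a transgenic line that stably expresses TFAM with GFP at its C terminus. The antibody was raised against GFP according to the sample descriptions, whereas the antibody field names TFAM. There were 2 samples of 1 group, biological replicates 3 and 4. The authors called the lists against a control alignment, which was not analysed here, and no untagged line was analysed, so binding by the tagged protein and recovery that does not depend on it cannot be told apart. In whole embryos, binding in few cells and weak binding in many cells cannot be told apart either. Besides the thresholded list (1290 peaks), the authors deposited lists of peaks together with background for replicate 3 (13396 regions), replicate 4 (13455 regions) and both together (the pooled list, 9598 regions). Each region carries a value from the authors' peak caller, a score with no unit whose scale differs between lists, and a q-value. The lists hold no read counts, so depth is unknown.

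TFAM is an HMG-box protein that coats and compacts mitochondrial DNA and takes part in its transcription. The 4 genes described here act elsewhere, in the differentiation of embryonic tissues. Elav is an RNA-binding protein of neurons that controls alternative splicing and the choice of 3' ends, and its antibody is the common marker of neurons in flies. Sls (Sallimus) is a giant titin-like protein that anchors thick filaments to the Z-disc of the muscle sarcomere. Tin (Tinman) is an NK-class homeodomain factor without which the heart and visceral muscle do not form. Fkh (Fork head) is a FoxA transcription factor needed for the foregut, hindgut and salivary glands.

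The sequence beneath each summit is shown because the 4 peaks differ in base composition and in short motifs. Each line gives 201 bases centred on the thresholded summit, in the direction of the gene, from the RefSeq Release 6 genome (dm6). Capitals mark CCAAT and TATAAA on either strand.
elav, chrX:523393-523593, minus strand: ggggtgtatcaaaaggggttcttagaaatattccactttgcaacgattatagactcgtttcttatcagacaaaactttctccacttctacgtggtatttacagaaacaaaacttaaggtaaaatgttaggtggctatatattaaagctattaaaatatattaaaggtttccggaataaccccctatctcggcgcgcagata
sls, chr3L:2115782-2115982, minus strand: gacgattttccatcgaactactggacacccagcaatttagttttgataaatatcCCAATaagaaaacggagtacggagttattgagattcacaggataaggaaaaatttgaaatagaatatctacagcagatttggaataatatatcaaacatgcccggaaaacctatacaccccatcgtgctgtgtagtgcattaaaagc
tin, chr3R:21378654-21378854, plus strand: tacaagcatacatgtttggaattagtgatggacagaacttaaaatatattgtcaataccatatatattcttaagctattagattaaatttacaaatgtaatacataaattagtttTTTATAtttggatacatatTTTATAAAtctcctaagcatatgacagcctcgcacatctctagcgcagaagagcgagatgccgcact
fkh, chr3R:28585380-28585580, minus strand: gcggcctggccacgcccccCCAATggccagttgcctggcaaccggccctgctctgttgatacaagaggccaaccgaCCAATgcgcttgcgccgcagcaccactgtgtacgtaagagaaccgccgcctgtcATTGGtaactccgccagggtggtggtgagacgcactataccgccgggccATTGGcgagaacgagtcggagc

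The fkh window stood apart by its base composition. A and T made up 35.8% of it, against 64.2% for elav, 63.2% for sls and 69.7% for tin. Across the 616 thresholded promoter peaks on nuclear chromosomes the median was 65.2%, and only 1 of them had a lower A+T share than fkh, at 34.3%. The other three genes lay within the range of 51.7 to 74.1% that held the middle 90% of these peaks. The fkh window also held 17 CpG dinucleotides, beside 7 for elav, 6 for sls and 4 for tin. No CpG count over all promoter peaks stands beside these. Whether the fkh count goes beyond its low A+T share was not tested. The longest run of A and T in the fkh window was 4 bases, whereas that of elav was 17 bases, a length reached by 21.3% of the promoter peaks.

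The motif CCAAT, the core bound by the NF-Y complex, was searched on both strands after the sequences had been seen. The fkh window held 4 matches, with first bases at -297, -240, -186 and -137 from the start site, and the sls window held 1, at -317. The elav and tin windows held none. At least 1 CCAAT was present in 33.3% of thresholded promoter windows and in 33.3% of windows of the remaining pooled regions. It was present in 35.7% of 13945 windows placed 245 bp upstream of a start site, 1 window per protein-coding gene. The fkh window was the 1 promoter window of 616 with 4 matches, the highest number found, and 0.19% of the 13945 windows upstream of protein-coding genes held 4 or more.

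The tin window held 3 matches to TATAAA on either strand, at -208, -189 and -187, the last 2 overlapping each other. TATAAA was found in 36.4% of promoter windows, and 3 or more matches in 3.41%. The elav, sls and fkh windows held no TATAAA. A further 7 short motifs, searched on both strands, had no match in the window of any of the 4 genes. Beside this, the DRE core ATCGAT was present in 10.9% of thresholded promoter windows. The GAGA factor motif GAGAG was present in 24.8% of them. The M1BP core GGTCACA was present in 4.06%, and the Zelda motif CAGGTAG in 0.65%. The E-box CACGTG was present in 3.90%, and TCAAGTG, bound by NK-2 factors such as Tin, in 3.57%. The repeat CACACA was present in 13.1%. The absence of these letters from 201 bases says nothing about the factors themselves.

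All 4 summits lay between 216 and 271 bp upstream of the nearest start site of their gene, and the whole 390 bp peak stood clear of the annotated transcripts of that gene. The summit was 267 bp upstream for elav, 271 bp for sls, 223 bp for tin and 216 bp for fkh. The edge of the peak nearest to the gene was 72 bp from the start for elav, 76 bp for sls, 29 bp for tin and 21 bp for fkh. The median thresholded peak was also 390 bp wide, and 91.1% of thresholded summits lay within 1 bp of the midpoint of their peak. The edge distances thus largely restate the summit positions and are not a measured extent of binding. Of the 616 thresholded promoter peaks, 515 had an upstream summit, but 213 (34.6%) lay wholly upstream. Their median summit position was -122 bp, with quartiles at -224.5 and -42.75 bp, so sls and elav lay beyond the outer quartile and tin and fkh just within it. The distance from summit to start was part of the rule that chose the genes, so the positions are a description.

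**Figure D1:**
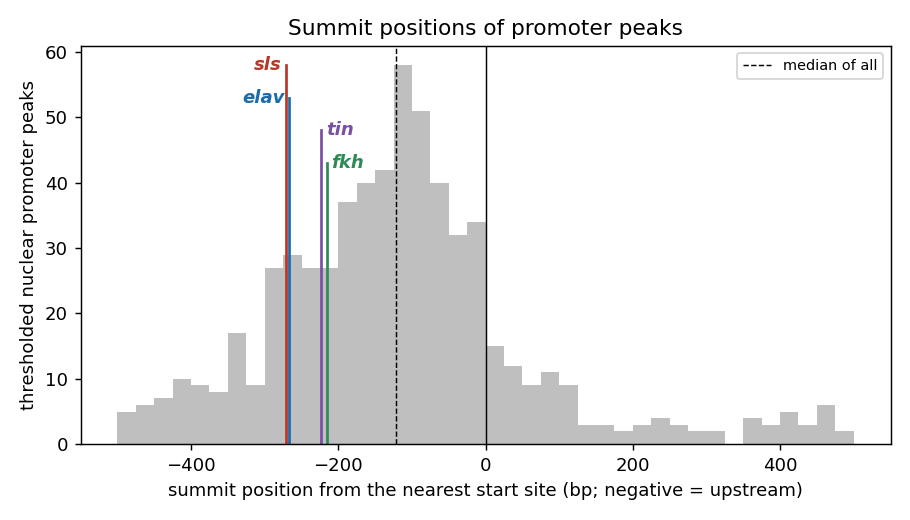
Histogram of the summit position from the nearest start site, in bp, for the 616 thresholded nuclear promoter peaks in bins of 25 bp, with coloured lines for the 4 genes and a dashed line for the median of -122 bp. The lines for sls, elav, tin and fkh stand between -271 and -216 bp, upstream of the median; the height of the lines has no meaning.

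The genes differ in which start site was near the peak. The elav gene (X 509235 to 523226, minus strand) has 2 start sites, 2941 bp apart. The peak stood at the outer site, used by 3 of its 4 annotated transcripts. It was 3208 bp from the inner start site at 520285, whose nearest pooled summit was 560 bp away and belonged to a region with a value of 40.3 and a q-value of 0.68, below the nuclear median of 46.1. The fkh gene (3R 28580976 to 28585264, minus strand) has 2 start sites only 152 bp apart, used by 1 and 4 transcripts. Both were within the window, at 216 and 368 bp, so the peak cannot be assigned to either. The sls gene (3L 2039681 to 2115611, minus strand) has 1 start site for all 13 transcripts, and tin (3R 21378977 to 21381970, plus strand) has 1 transcript.

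The elav peak was the highest of the 4. Its value was 153 in replicate 3, where it ranked 73rd of 13374 nuclear regions, and 133 in replicate 4, where it ranked 118th of 13434. In the pooled list it had a value of 281 and ranked 98th of 9576, which is also its place among the 1268 nuclear peaks of the thresholded list, since all 1290 thresholded peaks were taken over from the pooled list with position and value unchanged. Its pooled value was 6.09 times the nuclear median of the pooled list and above 91.4% of thresholded promoter peaks. Both replicates placed elav near the top. Its q-value was 0.0064 in replicate 3, 0.013 in replicate 4 and 0.0084 in the pooled list. These are the lowest values each list holds, shared by 12.3%, 6.56% and 13.0% of its regions, and sls and fkh had the same in every list.

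The fkh peak came second in the pooled list, with a value of 185 and nuclear rank 284. Its value was 59.7 in replicate 3 (nuclear rank 777) and 131 in replicate 4 (nuclear rank 122). The replicates thus disagreed on fkh: it was the lowest of the 4 genes in replicate 3 and close to elav in replicate 4. Among thresholded promoter peaks it exceeded 33.4% by its replicate 3 value and 89.4% by its replicate 4 value. The ratio of replicate 3 to replicate 4 was 0.45, against a median ratio of 0.94 over the 1266 nuclear thresholded peaks seen in both replicates. Of the promoter peaks seen in both, 5.54% departed further from that median, in either direction. The summits nevertheless lay 1 bp apart between replicates. The fkh window was also the one with the low A+T share, and whether base composition plays a part in the difference between libraries was not tested.

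The sls peak lay close to the middle of the distribution. Its value was 72.7 in replicate 3 (nuclear rank 509) and 64.0 in replicate 4 (nuclear rank 725), and 138 in the pooled list (nuclear rank 561). The median thresholded promoter peak had a value of 71.8 in replicate 3, 69.8 in replicate 4 and 134.5 in the pooled list. The ratio of replicate 3 to replicate 4 was 1.14 for sls, as for elav (1.15). Summits were 11 bp apart between replicates at sls and 37 bp apart at elav, beside a median of 27 bp over the promoter peaks.

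The tin peak was the lowest of the 4 in the pooled list. Its value was 67.8 in replicate 3 (nuclear rank 595, q-value 0.0064) and 43.5 in replicate 4 (nuclear rank 1755, q-value 0.056). It was therefore not below a q-value of 0.05 in replicate 4 taken alone, as was the case for 45 of the thresholded promoter peaks (7.33%). In the pooled list its value was 115.5 (nuclear rank 799), and 32.8% of thresholded promoter peaks were lower. The ratio of replicate 3 to replicate 4 was 1.56, and 17.6% of promoter peaks departed further from the median ratio. The summits of the replicates were 20 bp apart.

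**Figure D2:**
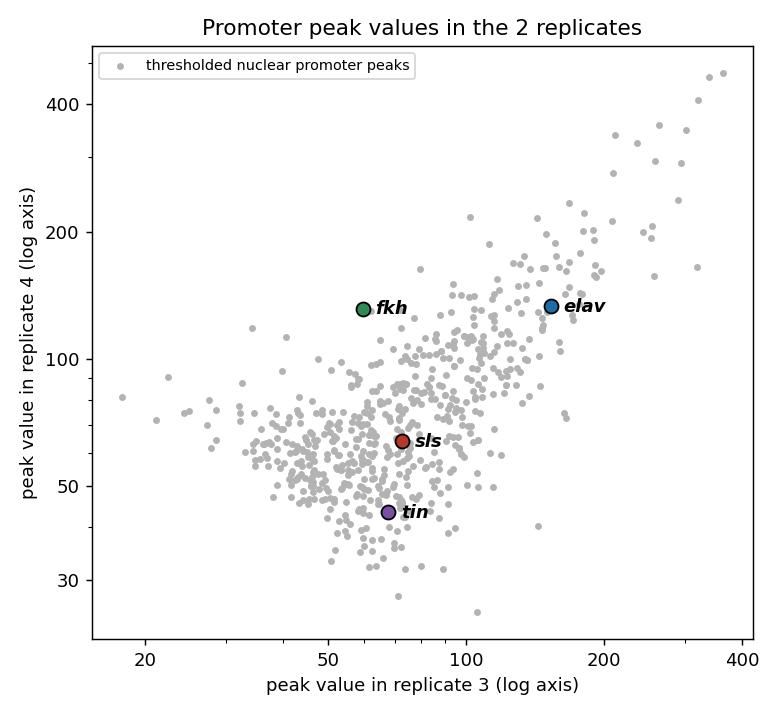
Peak value in replicate 3 against that in replicate 4, both on log axes, for thresholded nuclear promoter peaks seen in both replicates (grey, 614 peaks) and the 4 genes (coloured and named). The elav (153 and 133), sls (72.7 and 64.0) and tin (67.8 and 43.5) points lie within the cloud, with tin in its lower part, and fkh (59.7 and 131) lies at its upper edge.

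With only 2 samples, the order of the genes beyond elav depends on the library. In replicate 3 the order was elav, sls, tin, fkh, with sls, tin and fkh between 59.7 and 72.7. In replicate 4 it was elav, fkh, sls, tin, with elav and fkh within 2 units of each other. Across nuclear thresholded peaks the pooled value was 1.00 times the sum of the values in the replicates (median; SD 0.062), and it therefore hides such differences. The promoter peaks most like each gene in both replicates, by the sum of the absolute log2 differences, were those of CG1907 and l(2)gd1 for elav (0.08 and 0.14), CG32137 and bowl for sls (0.02 and 0.06), SerRS and CG6511 for tin (0.02 and 0.04) and RpL22 and bgcn for fkh (0.08 and 0.27). The second peak was thus further from fkh than from the other three genes.

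Only the elav peak had the start site of another gene within 500 bp. The non-coding lncRNA:enrr starts at the same base as the outer elav site and runs in the same direction, so the peak belongs equally to either. The peak also lies inside an intron of arg, the arginase gene, which runs in the opposite direction and overlaps nearly all of elav (its start is 14058 bp from the summit). The start of CG4293 was 6356 bp away on the other side. Of all thresholded promoter peaks, 64.3% had a single gene in the window, as sls, tin and fkh did.

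The peaks of sls, tin and fkh lay in intergenic sequence. Upstream of sls, the next gene body is zormin, which encodes another titin-like protein of the sarcomere and runs in the same direction. Its 3' end was 1584 bp from the summit. The nearest other start site, of the non-coding asRNA:CR45802, was 2616 bp away. Upstream of tin is the start of mod(mdg4), which encodes a family of chromatin and insulator proteins, divergent from tin and 1353 bp from the summit. On the other side the start of bap, an NK-class homeobox gene of visceral mesoderm, was 10126 bp away. Upstream of fkh, the non-coding lncRNA:CR43126 starts 568 bp from the summit in the opposite direction, just outside the window. The nearest start on the other side was 40663 bp away, at mIF2, a mitochondrial translation initiation factor gene.

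Upstream of fkh and of elav a second region had a low q-value in the pooled list. Upstream of fkh a region with its summit 1779 bp from the start (3R 28586848 to 28587237), within lncRNA:CR43126, had a value of 40.9 in replicate 3 (q-value 0.0064), 36.8 in replicate 4 (q-value 0.14) and 73.2 in the pooled list (q-value 0.017). Upstream of elav a region with its summit 3473 bp from the start (X 526504 to 526893), within arg, had a value of 32.2 in replicate 3 (q-value 0.015), 53.2 in replicate 4 (q-value 0.018) and 87.2 in the pooled list (q-value 0.0093). Among all regions of a list, the distal fkh region ranked 1616 in replicate 3 and 2640 in replicate 4, the reverse of the fkh promoter, and the distal elav region ranked 2426 and 1125. Of the 7 pooled regions within 5000 bp of a bound start other than the promoter peaks, these were the 2 with a q-value of 0.05 or less, and neither was in the thresholded list.

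No region inside the 4 genes had a q-value of 0.05 or less in any list. The pooled list held 3 regions with a summit in the 4 gene spans, 2 in elav introns (values 38.9 and 40.3) and 1 in an sls intron (39.9), all below the nuclear median of 46.1 and with q-values of 0.68 to 0.75. The tin and fkh spans held none. The replicate lists held 7 regions each in these spans, and 1 of the 7 in replicate 3 overlapped a replicate 4 region. The lowest q-value among them belonged to a region in tin coding sequence in replicate 4 (value 38.0, q-value 0.12), close to the 43.5 of the tin promoter in that library. It had no counterpart in replicate 3 or in the pooled list. The sls gene spans 75931 bp and held 1 pooled region, or 1.32 per 100 kb, against 7.15 per 100 kb over the nuclear chromosomes. The sls figure leaves out its promoter peak, which lies outside the span, whereas the figure for the chromosomes includes promoter peaks. The 2 pooled regions in elav lay in a much shorter span of 13992 bp.

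**Figure D3:**
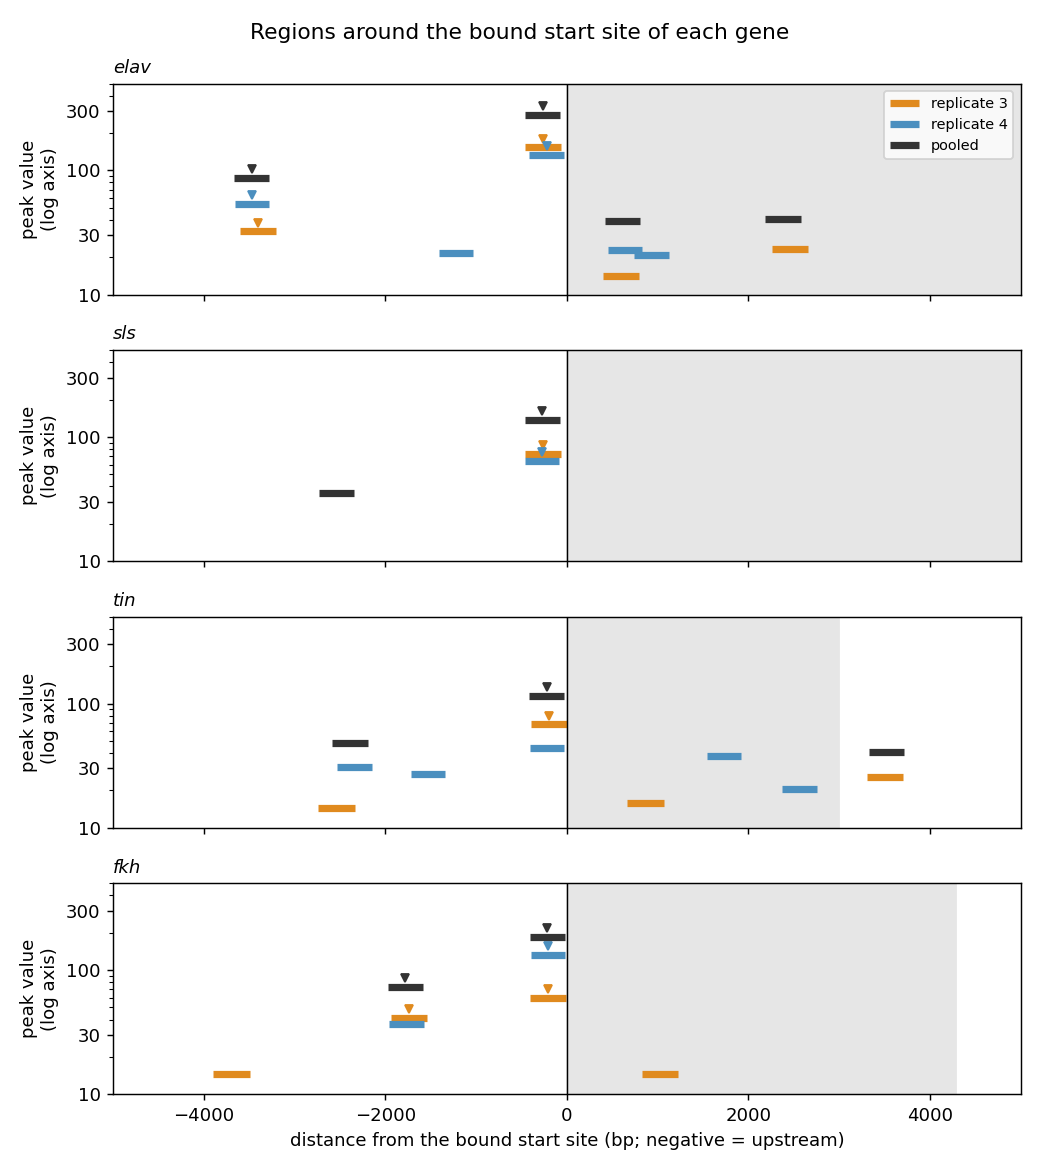
Every region with a summit within 5000 bp of the bound start site of elav, sls, tin and fkh, at its distance from that site (bp, negative is upstream) and its peak value (log axis), as bars as wide as the region and coloured by list. Triangles mark q-values of 0.05 or less and grey shading the gene; in each panel the highest bar of every list is the one just upstream of the start, and no bar inside a gene has a triangle.

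Other genes of the same lineages give the setting for these 4. In 4 lists of neural, muscle, heart and gut genes, 86 genes in all, 8 had a thresholded promoter peak (9.30%), but 4 of the 8 were chosen for having it. Without elav, sls, tin and fkh it was 4 of 82 (4.88%), near the 5.35% of all protein-coding genes. The 8 were 2 of 24 neural, 3 of 30 muscle, 1 of 16 heart and 2 of 16 gut genes.

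The 4 further genes were moody, Msp300, mbc and bowl. At moody, a G protein-coupled receptor of the glia that form the blood-brain barrier, the pooled value was 157, with 62.2 in replicate 3 and 96.6 in replicate 4. At bowl, a zinc-finger gene needed in the hindgut and proventriculus, it was 126, with 70.6 and 65.0 in the replicates. At mbc, a myoblast fusion gene, it was 131, with 59.6 and 70.3, but the start of Nup98-96, a nuclear pore gene, was nearer, at 21 bp from the summit against 165 bp. At Msp300, a giant protein that links muscle nuclei to the cytoskeleton, it was 104, with 55.4 and 53.2. Summits lay over 200 bp upstream in 2 of these 4 genes, bowl (280 bp) and Msp300 (378 bp), and 165 bp upstream in moody and mbc. Of the 746 protein-coding genes with such a peak, 237 (31.8%) had the summit over 200 bp upstream.

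Counting only summits whose q-value did not exceed 0.05, and leaving out the 4 genes chosen by their peak, the lineage lists held 6 promoters in the pooled list (7.32% of 82, against 9.47% of all protein-coding genes). They held 12 in replicate 3 (14.6%, against 11.9%) and 8 in replicate 4 (9.76%, against 6.81%). The share was thus below that of all genes in the pooled list and above it in each replicate, and no test was run. With background regions included, 23 of the 82 had a pooled summit at the promoter (28.0%, against 25.3%). These 23 had a median value of 46.3, beside 46.1 for all nuclear pooled regions. With the 4 genes included, the 4 highest were elav, fkh, moody and sls. A thresholded peak chose elav, fkh and sls, so their high place by this value was largely fixed in advance.

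The reproducibility threshold acted as a limit on the pooled value: the lowest nuclear peak kept had a value of 92.42, and the highest not kept 92.41. The gut list gene eyg, a Pax-type factor of the salivary duct, fell just outside it with 92.2 (summit 215 bp upstream; 32.4 in replicate 3 and 59.9 in replicate 4). The neural gene insc, an adaptor of asymmetric neuroblast division, came next with 83.6 (29.0 and 51.4). Of the list genes inside the threshold, Msp300 (104) and tin (115.5) were the nearest to it. By distance, at 378 bp, Msp300 was the closest to the edge while inside the window. The nearest list genes outside it were Mef2, the muscle differentiation factor, with a thresholded summit 1094 bp from a start (value 273), bin, a FoxF factor of visceral muscle (1418 bp, value 142), and rols, a myoblast fusion gene (1825 bp, value 94.6). The summit closest to Mef2 lay 126 bp upstream of the start of another gene, Pal1, and was counted as a promoter peak there.

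**Figure D4:**
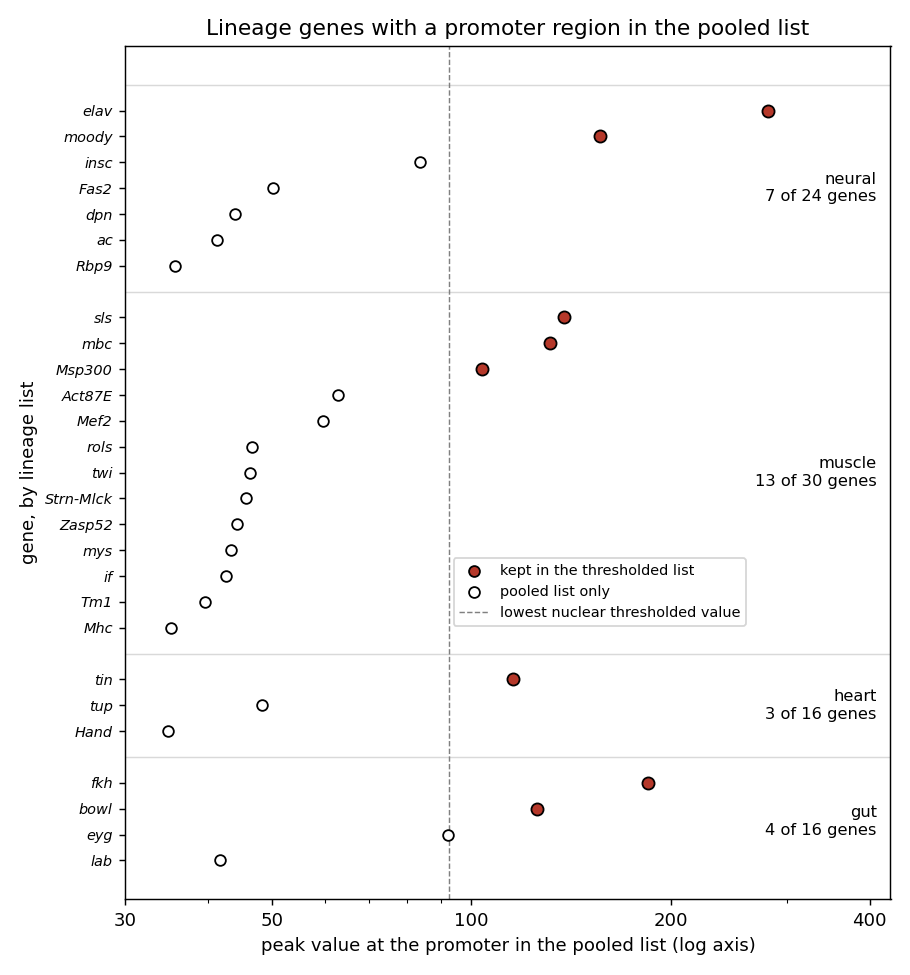
Peak value in the pooled list (log axis) for each neural, muscle, heart or gut list gene with a pooled summit within 500 bp of a start site. Filled points were kept in the thresholded list and open points were not; the dashed line marks the lowest nuclear thresholded value, and elav, at 281, lies furthest to the right.

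Relatives of the 4 genes were mostly without a thresholded promoter peak. In the ELAV family 1 of 3 had one (elav itself), while Rbp9 had a pooled region at background height (35.6, q-value 0.91) and fne had none. In the cluster of NK homeobox genes around tin it was 1 of 6, tin itself. Among 16 forkhead genes it was 2, fkh and CHES-1-like, whose summit lay 256 bp downstream of its start (value 197; 108 in replicate 3 and 81.4 in replicate 4). Among 5 giant sarcomere and muscle scaffold genes it was 2, sls and Msp300. Each of these groups holds 1 of the 4 genes chosen for having the peak, so at least 1 gene in each was fixed in advance. For that reason, and because the counts are small, they cannot be read against the 5.35% of all protein-coding genes.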

How the data were processed

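Chromatin immunoprecipitation peaks of 2 samples (1 group, replicates 3 and 4 as numbered in the labels) were used as deposited, with no reads. Per the deposited descriptions of the files, each list of peaks and background came from 1 replicate or both replicates with a control alignment, and the thresholded list from these lists. Aligner and peak caller: not given in the sources used here, nor are settings. The authors' peak value in each list is a score. The authors' deposited −log10 q-value was converted to a q-value. The dm3 lists were not used here.

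Start sites came from the Ensembl release 115 annotation (dm6 coordinates), without transposable elements, and sequence from the RefSeq Release 6 FASTA. All dm6 peak ends lay within its 6 nuclear chromosomes used. Positions count from 1. A thresholded peak was matched to the highest region of another list that overlapped it by 1 base or more. Ranks run over nuclear regions. A+T and motifs were read 100 bp either side of the summit. Assignment of summits to start sites was tested on simulated summits. The only interval given is a 95% Wilson interval; with 1 group, and the control entering only through the authors' values, no test was run. Of 104 list symbols, 3 were found under newer names. Python 3.11.15, pandas 2.3.3 and scipy 1.17.1 were used.

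The members and lists were chosen with earlier results of these data known; CCAAT was added after the sequences had been seen. Genes named are the 4, their neighbours, list and family genes with a thresholded promoter peak or a thresholded summit at 500 to 2000 bp, the 2 list genes with the highest pooled promoter value not thresholded, and the 2 genes most like each of the 4. Pal1 is named as the gene with its start nearest to the summit close to Mef2.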

Additional observations from a re-analysis of the deposited data

How the results depend on the processing

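With a window of 200 bp, 0 of the 4 genes and 2 list genes (mbc and moody) had a thresholded promoter peak, against 3.49% of protein-coding genes, because all 4 summits lie over 200 bp upstream. With 1000 bp the 4 genes and the 8 list genes were the same, and the share of all genes was 6.46%. Counting the nearest start only gave 4 genes, 7 list genes and 3.94%, and the outermost start only gave 4, 7 and 4.39%. Among the highest 645 peaks tin, bowl and Msp300 were lost, which left 3 genes, 5 list genes and 2.92%. Leaving out 1 replicate and taking as many regions from the other gave 3 to 4 of the genes (tin was lost without replicate 3), 9 to 10 list genes and 5.13 to 5.53% of all genes. Without the 4 genes, a choice made after seeing the data, 4 list genes were left. The gene spans held 3 pooled regions, 0 at a q-value limit of 0.05, 3 with any base of overlap, and 7 in either replicate alone. Matching by summits within 100 bp or by reciprocal overlap gave the same region in all 12 matches. No paired analysis was possible because the samples form 1 group and no groups were compared. Depth is unknown, and a lack of a region says only that none was called.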
